A study of Mus musculus with 13 samples.

Results

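The 10 genes described here carry an interferon signal from the cell surface towards transcription: the receptor chains Ifnar1, Ifnar2, Ifngr1, Ifngr2 and Ifnlr1, the kinases Jak1 and Tyk2, and the interferon regulatory factors (IRFs) Irf1, Irf3 and Irf5. They were chosen by mouse symbol in a count table of 53379 genes, and all 10 were found and passed the filter on low counts. The data are bulk RNA-seq counts of polyA RNA from CD45- thymic stroma cells, nonhematopoietic cells such as thymic epithelial cells (TECs), fibroblasts and endothelial cells. All mice were wild-type C57BL/6 and 2 months old, and no group carried an engineered allele. There were 4 libraries of untreated mice at steady state, which the table's columns name as PBS controls of day 1 (replicate 2), day 4 (replicate 2) and day 7 (replicates 1 and 2), and 3 libraries for each of 3 times, days 1, 4 and 7, that followed sublethal total body irradiation (SL-TBI). The labels do not say how many mice made up a library, so that p-values measure the spread between libraries. Because these are bulk samples, fewer cells of a type and less RNA per cell cannot be told apart.

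Type I interferons bind a receptor made of IFNAR1 and IFNAR2, which activates the kinases TYK2 and JAK1. Interferon gamma binds IFNGR1 and IFNGR2, with JAK1 and JAK2, and interferon lambda binds IFNLR1 with IL10RB, a receptor found mainly on epithelial cells. The kinases phosphorylate STAT factors. Complexes that hold STAT2 and IRF9 switch on interferon-stimulated genes through IRF-type elements, while interferon gamma acts through gamma-activated sites (GAS). IRF3 and IRF5 act upstream, where sensors of nucleic acids activate them to drive interferon genes, and IRF1 is both a target of interferon gamma and a transcription factor. In the thymus, medullary TECs are known to make interferons without infection.

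All 14 of a list of interferon-stimulated genes, compiled with earlier results of these data known, rose at day 1 after SL-TBI. At that time none of the 10 genes passed the threshold in either direction. Of all 19984 genes tested, 2.35% did so (edgeR quasi-likelihood F-test, Benjamini-Hochberg adjusted p of 0.05 or less). At this share, 0 of 10 does not set the members apart. Over the other comparisons, 1 call was made: Ifngr1, the ligand-binding chain of the interferon gamma receptor, rose between day 1 and day 7. In that comparison 8.13% of all genes were called, and the call of Ifngr1 was lost under 10 of 16 alternatives. Jak1, Ifngr2 and Ifnar2 had their lowest levels together in 3 of the 13 libraries, which came from days 1 and 4 and differed from the rest in many other genes.

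Stretches of 250 bases before the start of a gene (RefSeq, GRCm38.p6) are printed for the regulatory letters they hold or lack. Irf1 and Ifnar2 are the only members with a GAS (TTCNNNGAA) in this window, Ifngr1 is the gene that passed a threshold, and Isg15 is a stimulated gene shown for contrast. Capitals mark GAS or IRF elements (GAAANNGAAA). Irf1 lies at chr11:53769764-53770013 (+ strand), Ifnar2 at chr16:91372533-91372782 (+), Ifngr1 at chr10:19591699-19591948 (+) and Isg15 at chr4:156200819-156201068 (- strand).
Irf1: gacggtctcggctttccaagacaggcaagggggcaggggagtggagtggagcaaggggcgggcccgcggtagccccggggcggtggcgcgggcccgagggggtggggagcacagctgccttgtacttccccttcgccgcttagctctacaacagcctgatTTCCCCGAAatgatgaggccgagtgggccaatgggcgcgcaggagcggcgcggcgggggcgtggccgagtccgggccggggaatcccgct
Ifnar2: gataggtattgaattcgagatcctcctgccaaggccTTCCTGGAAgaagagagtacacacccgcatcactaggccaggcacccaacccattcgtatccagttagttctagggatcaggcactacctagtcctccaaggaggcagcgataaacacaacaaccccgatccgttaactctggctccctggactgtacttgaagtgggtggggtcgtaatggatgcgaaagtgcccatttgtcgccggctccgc
Ifngr1: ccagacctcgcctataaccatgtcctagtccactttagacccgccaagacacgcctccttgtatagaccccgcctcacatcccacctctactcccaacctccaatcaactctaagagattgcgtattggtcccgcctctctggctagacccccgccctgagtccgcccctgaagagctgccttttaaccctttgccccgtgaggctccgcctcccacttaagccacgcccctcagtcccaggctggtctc
Isg15: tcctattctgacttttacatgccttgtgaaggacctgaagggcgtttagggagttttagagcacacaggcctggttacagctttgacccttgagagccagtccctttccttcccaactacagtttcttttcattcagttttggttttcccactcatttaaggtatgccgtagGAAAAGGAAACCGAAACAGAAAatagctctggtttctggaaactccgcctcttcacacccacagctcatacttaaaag

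Both motifs were searched on both strands of 1 such window for each start in the table, 32851 in all. A GAS was in 7.02% of these windows and an IRF element in 2.98%. All 10 genes had a window, Irf1 with 2. The GAS of Irf1, TTCCCCGAA, lay 90 to 82 bases before the start, and that of Ifnar2, TTCCTGGAA, 214 to 206 bases before it. None of the 10 genes had an IRF element there, whereas 9 of the 11 stimulated genes with a window did. In Isg15, which encodes a ubiquitin-like protein, 3 overlapping IRF elements spanned bases 78 to 57. A match of letters is a description of the sequence and not of binding, and no match says only that these letters are absent from this window. The GC content of the members' windows ran from 54.0% in Ifnar2 to 74.4% in the second window of Irf1, with Ifngr2 at 74.0% and Irf5 at 72.0%, against a median of 52.4% over all windows.

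Total counts ran from 15721866 to 52056896 per library (median 44078906). The sum of 9 TEC genes was between 846 and 4781 CPM (counts scaled to a common library size by TMM, as counts per 1e6), so epithelial RNA was present in all 13 libraries, as were genes of endothelial cells and fibroblasts. The gate was for CD45-, yet Ptprc, which encodes CD45, was at 24.0 to 119 CPM at steady state, 12.7 to 14.99 at day 1, 4.07 to 4.54 at day 4 and 21.6 to 606 at day 7. A list of 12 thymocyte genes followed the same order, with sums of 212 to 714, 111 to 134, 19.4 to 30.1 and 189 to 4232 CPM, and no gene of it was at 0 in any condition. On the first principal component, with 34.3% of the variance, day 1 replicate 1 and day 4 replicates 2 and 3 stood apart at 158, 70.5 and 65.1, where the other 10 libraries were at 0.427 or below.

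Levels of different genes were compared per kilobase of exon. At steady state Ifngr1 was the highest, at 150 ± 36.9 CPM per kb (SD, n = 4), at a percentile of 98.7 among the genes tested. Jak1, the kinase shared by all 3 receptor types, followed at 67.7 ± 2.32 CPM per kb. Ifnar2 (40.8 ± 8.19), Irf1 (36.6 ± 10.99) and Ifngr2 (32.0 ± 3.49) came next, and their libraries overlapped between neighbours. Ifnar1 was at 20.8 ± 2.07 CPM per kb, so that of both chains of the type I receptor Ifnar2, the chain with the higher affinity for its ligands, had more reads per kb. Irf3 (13.5 ± 1.38) and Irf5 (13.04 ± 4.91) overlapped. Tyk2 was at 5.77 ± 0.663 CPM per kb. Ifnlr1 was the lowest at 0.696 ± 0.148, at a percentile of 32.2, and rested on 37 to 173 counts per library over all conditions.

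Ifngr1 was the highest, Tyk2 the ninth and Ifnlr1 the lowest per kb in all 4 conditions, and the libraries of these genes did not overlap those of their neighbours in the order. Jak1 was the next after Ifngr1 by its mean in each condition, but at days 1 and 4 its libraries overlapped those of Irf1. Irf1 and Ifnar2 changed places at days 1 and 4, and Irf3 and Irf5 at day 1, all between neighbours that overlapped.

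**Figure D1:**
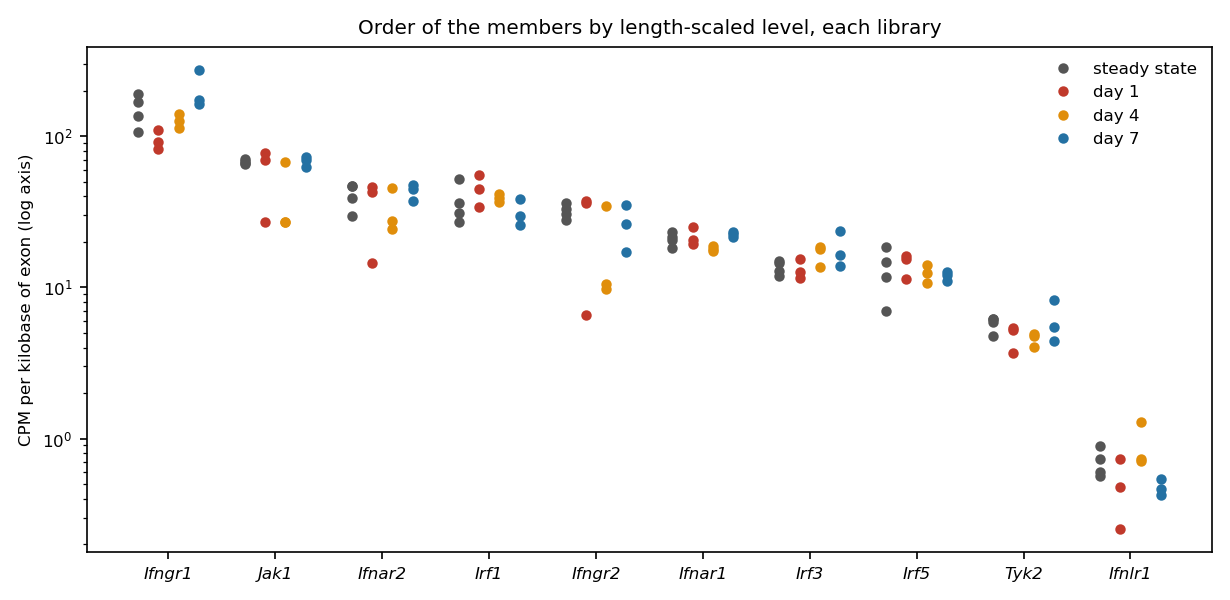
Level of the 10 genes in every library, in CPM per kilobase of exon on a log axis, in the order of steady state. Points are libraries, coloured by condition. Ifngr1 is the highest and Ifnlr1 the lowest in every condition. Jak1 and Ifngr2 each have libraries far below the others at days 1 and 4, as has Ifnar2 at day 1. The low libraries of Ifnar2 at day 4, at 24.5 and 27.4 CPM per kb, are nearer to the lowest of steady state, at 29.9.

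Whether exon bases of a gene also belong to another gene was checked with the exon coordinates deposited with the counts (GRCm38). Ifnar2 (chr16:91372783-91405589), Ifnar1 (chr16:91485238-91507441) and Ifngr2 (chr16:91547072-91565169) lie in 1 cluster on the + strand. No exon base of Ifnar1, Ifngr1, Ifngr2 or Ifnlr1 belonged to another gene. The share was 14.1% for Irf5, with Tnpo3, 9.46% for Ifnar2, with Gm21970, 8.07% for Tyk2, with 1700084C06Rik, and 3.40% or less for Irf1, Irf3 and Jak1. The counting did not use strand and drops reads of overlapping genes, so reads in these bases were left out of both genes. Levels per kb of the genes concerned may be too low for that reason.

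The levels of the receptor chains were followed first. Ifnar1 (ENSMUSG00000022967) was at 107, 120, 127 and 136 CPM in the steady-state libraries. It was at 114, 148 and 122 CPM at day 1, at 111, 106 and 102 at day 4, and at 133, 137 and 127 at day 7. Its SDs, 4.14 to 17.8 CPM, were small in each condition. Its log2 fold change was 0.07 ± 0.17 (SE) at day 1, -0.20 ± 0.17 at day 4 and 0.12 ± 0.17 at day 7 against steady state, with adjusted p of 0.874, 0.585 and 0.901 by edgeR. The 95% interval at day 1, from -0.27 to 0.40, was the narrowest of the 10 genes. All 3 libraries of day 4 were below those of day 1 and of day 7 (26.3% and 26.2% of all genes did not overlap). Those differences, of -0.27 ± 0.19 and 0.32 ± 0.19 (day 7 against day 4), did not pass the threshold (adjusted p = 0.548 and 0.367, edgeR).

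Ifnar2 (ENSMUSG00000022971) was at 99.4, 156, 130 and 157 CPM at steady state. It was at 48.3, 153 and 142 CPM at day 1, 150, 81.5 and 91.1 at day 4, and 158, 123 and 148 at day 7. The 3 low values after SL-TBI came from the 3 libraries that stand apart, and the other 6 lay within or just above the range of steady state. Its log2 fold changes of -0.25 ± 0.36 at day 1, -0.34 ± 0.37 at day 4 and 0.08 ± 0.36 at day 7 missed the threshold (adjusted p = 0.764, 0.672 and 0.980, edgeR). Without the 3 libraries the values at days 1 and 4 were 0.13 and 0.15.

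**Figure D2:**
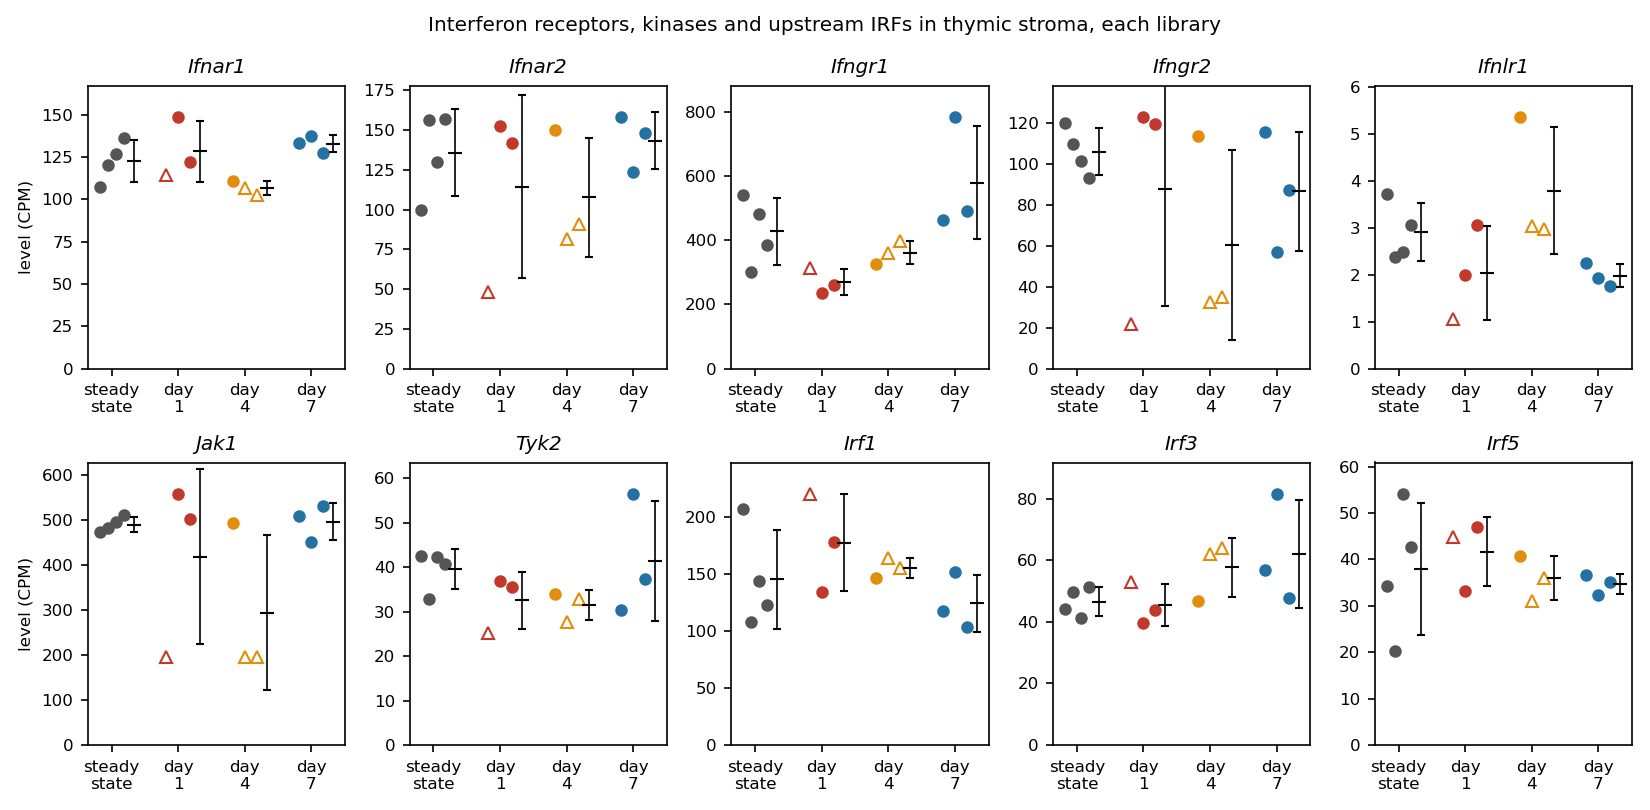
Level in CPM of the 10 genes, 1 panel each, with an axis from 0. Each point is a library (open triangles: day 1 replicate 1 and day 4 replicates 2 and 3, which stand apart) and the bar beside it is the mean ± SD of the condition. Ifngr1 is lowest at day 1 and highest in 1 library of day 7, at 782 CPM, and the open triangles of Jak1, Ifngr2 and Ifnar2 lie below all filled points.

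Ifngr1 (ENSMUSG00000020009, chr10:19591949-19610229) varied most clearly with time. It was at 540, 302, 482 and 386 CPM at steady state, and at 313, 235 and 260 CPM at day 1. At day 4 it was at 325, 361 and 397 CPM, and at day 7 at 464, 782 and 492. Each library of day 4 was above each of day 1, and each of day 7 above each of day 4, while steady state overlapped with all 3 days. Over all genes, libraries did not overlap for 26.3% from day 1 to day 4 and 26.2% from day 4 to day 7. Against steady state the log2 fold change was -0.67 ± 0.29 at day 1, with an unadjusted p of 0.022 and an adjusted p of 0.209. Ifngr1 was the only member with an unadjusted p under 0.05 in that comparison, where 17.2% of all genes had one. It was -0.24 ± 0.26 at day 4 and 0.44 ± 0.27 at day 7 (adjusted p = 0.670 and 0.521, edgeR).

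Between the times after SL-TBI, Ifngr1 rose from day 1 to day 7 by 1.10 ± 0.35 on the log2 scale, which is 2.15-fold (95% interval of the log2 fold change, 0.43 to 1.78). The adjusted p was 0.0275 in edgeR and 0.00345 in DESeq2, and 3 of 3 libraries of day 7 were higher. Libraries of days 1 and 7 did not overlap for 27.5% of all genes. In this comparison 1 of the 10 members was called, beside 8.13% of all genes (3.68% higher), and 1 had an unadjusted p under 0.05, beside 23.9% of all genes. From day 4 to day 7 the difference was 0.68 ± 0.31 (adjusted p = 0.192), and from day 1 to day 4 it was 0.42 ± 0.29 (adjusted p = 0.531). The rise from day 1 to day 7 kept its sign under all 16 alternatives, from 0.46 to 1.24, and its call under 6. It was 0.80 (adjusted p = 0.128) without day 7 replicate 2, and the call was also lost without any 1 library of day 1 (adjusted p from 0.0574 to 0.0935) or without day 7 replicate 3 (0.0567). Without the 3 libraries that stand apart it was 1.20 (adjusted p = 0.103), and with only both conditions in the fit 1.12 (0.062).

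Thymocytes and other leukocytes also carry Ifngr1. Like Ifngr1, thymocyte RNA was higher at day 7 than at day 1. From day 1 to day 4 thymocyte RNA fell, while Ifngr1 was at 235 to 313 CPM at day 1 and 325 to 397 at day 4. The library with the most Ifngr1, day 7 replicate 2 at 782 CPM, also had the highest thymocyte sum, 4232 CPM, and the highest Ptprc, 606 CPM. With a thymocyte score as a covariate, the difference between days 7 and 1 was 0.46 ± 0.34 (adjusted p = 0.556). With this covariate the difference between days 7 and 4 changed sign to -0.35 (adjusted p = 0.772), and that between day 4 and steady state changed from -0.24 to 0.48 (adjusted p = 0.609). The thymocyte sum was 212 to 714 CPM at steady state, 111 to 134 at day 1, 19.4 to 30.1 at day 4 and 189 to 4232 at day 7. Sums of 7 macrophage genes were between 26.4 and 68.3 CPM over all libraries. The part of these cells in the difference was not tested and cannot be told apart from time here.

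**Figure D3:**
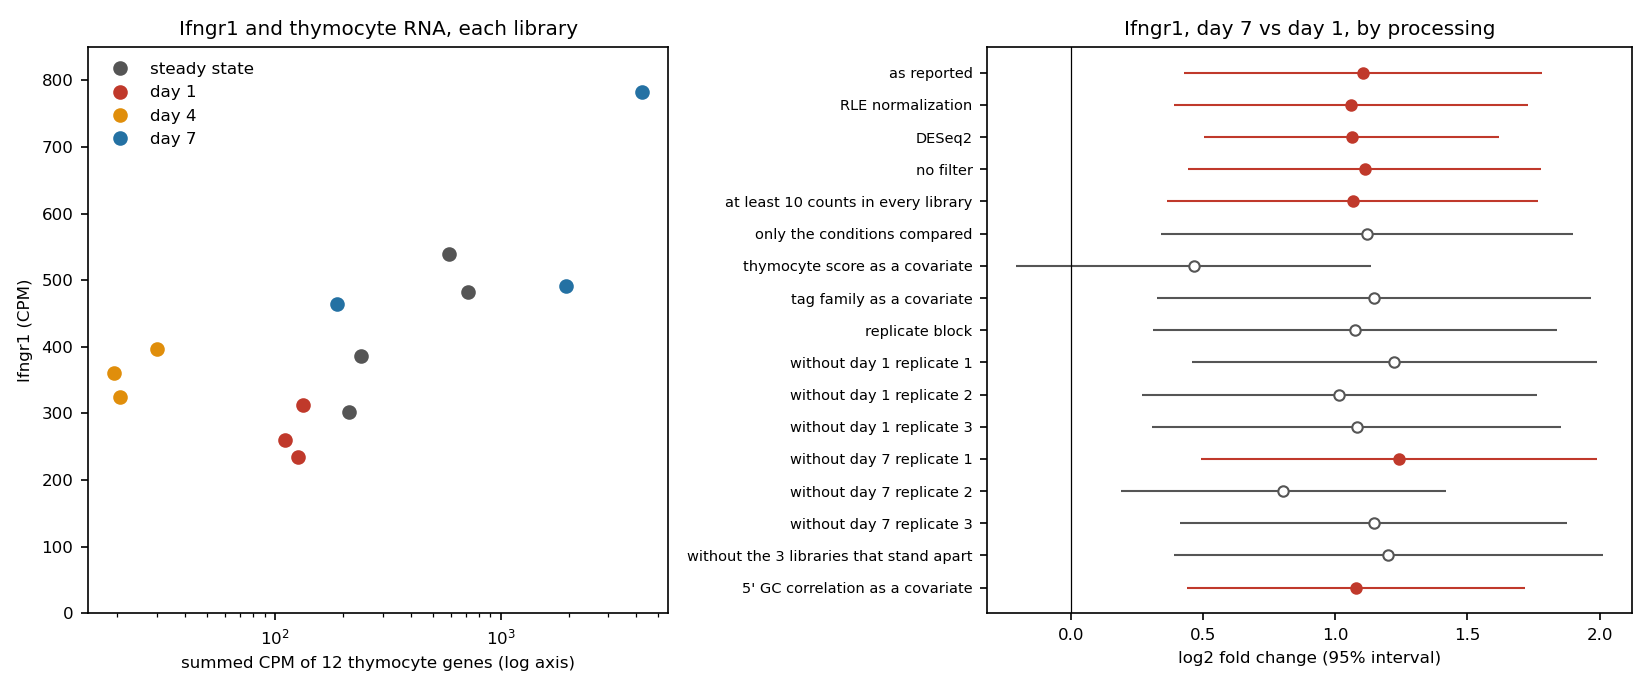
Left: Ifngr1 in CPM against the summed CPM of 12 thymocyte genes (log axis), 1 point per library, coloured by condition. Right: log2 fold change of Ifngr1 between day 7 and day 1 with its 95% interval, as reported and under each alternative, filled in red where the adjusted p was 0.05 or less; the value lies between 0.46 and 1.24 and all are above 0.

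Ifngr2 (ENSMUSG00000022965), the signalling chain of the same receptor, had its lowest values in 3 libraries of days 1 and 4. Of these, day 1 replicate 1 had the highest Ifngr1 of day 1, at 313 CPM. Ifngr2 was at 120, 110, 102 and 93.0 CPM at steady state, at 21.7, 123 and 119 at day 1, at 114, 32.4 and 34.8 at day 4, and at 115, 57.0 and 87.3 at day 7. The 3 lowest were again the libraries that stand apart, and day 7 replicate 2 was the next lowest. Its log2 fold changes against steady state, -0.27 ± 0.55, -0.82 ± 0.58 and -0.29 ± 0.55 at days 1, 4 and 7, had the widest intervals of the 10 genes and adjusted p of 0.837, 0.507 and 0.938 (edgeR). Over the 13 libraries Pearson's r of log2 levels between Ifngr1 and Ifngr2 was -0.07, given as a description only.

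Ifnlr1 (ENSMUSG00000062157), the interferon lambda chain, was low in every library. It was at 3.73, 2.38, 2.50 and 3.05 CPM at steady state, 1.05, 2.00 and 3.06 at day 1, 5.36, 3.04 and 2.98 at day 4, and 2.26, 1.93 and 1.76 at day 7. Each library of day 7 was below each of steady state and of day 4. At steady state against day 7, 7.49% of all genes had libraries that did not overlap, and at day 4 against day 7 26.2%. The difference from day 4 to day 7 was -0.92 ± 0.45 (unadjusted p = 0.0413, adjusted p = 0.242, edgeR), and that against steady state -0.55 ± 0.41 (adjusted p = 0.638). The sum of 9 TEC genes was 1107 to 3767 CPM at steady state, 1581 to 3000 at day 1, 3023 to 4781 at day 4 and 846 to 1601 at day 7. It was highest at day 4 and lowest at day 7, while at day 1 its median was above that of steady state (2105 against 1781 CPM) and the mean of Ifnlr1 was below it (2.03 against 2.91 CPM). The part of TEC content in Ifnlr1 was not tested. On 37 to 173 counts per library, the 95% interval of the log2 fold change at day 1 ran from -1.31 to 0.28.

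Of the kinases, Jak1 (ENSMUSG00000028530) was the most even of the 10 genes at steady state, at 472, 481, 495 and 510 CPM. It was at 195, 557 and 502 CPM at day 1, at 492, 195 and 195 at day 4, and at 507, 450 and 530 at day 7. The libraries formed a group of 3 at 195 CPM and a group of 10 between 450 and 557, and no condition lay wholly in the first. Its log2 fold change was -0.23 ± 0.38 at day 1, -0.74 ± 0.41 at day 4 and 0.02 ± 0.38 at day 7 against steady state (adjusted p = 0.801, 0.420 and 0.997, edgeR). Without the 3 libraries it was 0.13 at day 1 and 0.01 at day 4. Tyk2 (ENSMUSG00000032175), the kinase of the IFNAR1 chain, was at 32.9 to 42.5 CPM at steady state, 25.1 to 36.9 at day 1, 27.6 to 34.0 at day 4 and 30.4 to 56.5 at day 7. All ranges overlapped. Its log2 fold changes were -0.28 ± 0.25, -0.33 ± 0.25 and 0.06 ± 0.24 (adjusted p = 0.576, 0.532 and 0.977), and its highest library was day 7 replicate 2.

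The libraries day 1 replicate 1 and day 4 replicates 2 and 3 were compared with the other 10. Of 11459 genes with a mean of at least 5 CPM, 2185 (19.1%) had their 3 lowest values in these libraries, and 326 (2.84%) their 3 highest. Of the members with such a mean, Jak1, Ifngr2 and Ifnar2 were among the former. The medians of the 3 and of the 10 libraries were 195 and 498 CPM for Jak1, 32.4 and 112 for Ifngr2, and 81.5 and 149 for Ifnar2. The first 300 bases of the transcript had a median GC content of 69.3% over the 2185 genes and 60.3% over all. It was 67.3% for Jak1, 65.3% for Ifngr2 and 70.7% for Ifnar2. Ifnlr1, close to Ifngr2 in GC content, was not lowest in all 3. For each library, the deviation of each gene's log2 level from its median over the 13 libraries was taken. Across genes, Spearman's rho of this deviation with this GC content was -0.446, -0.372 and -0.373 in the 3 libraries and -0.221 to 0.293 in the others. The part of GC content in these levels was not tested.

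**Figure D4:**
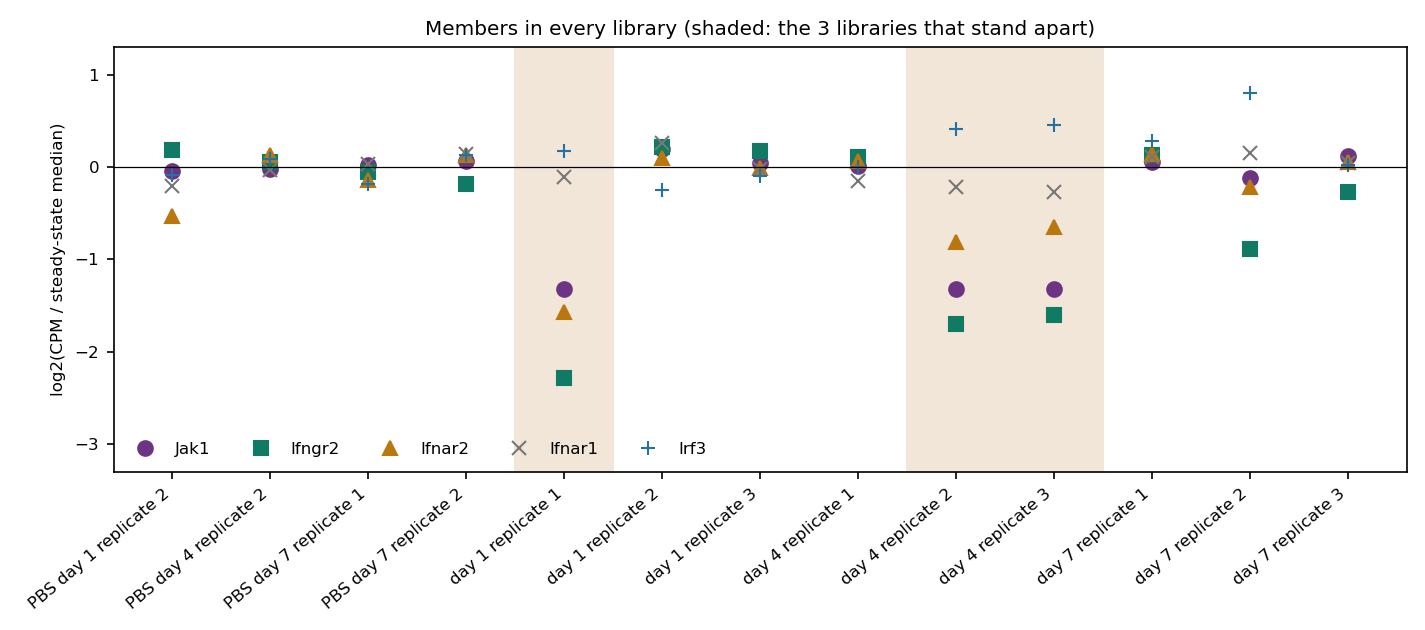
Level of 5 members in every library, as log2 of the CPM divided by the median CPM of steady state. Shaded columns are the libraries that stand apart. Jak1, Ifngr2 and Ifnar2 are lowest in the shaded columns, with Jak1 at 195 CPM in each, whereas Ifnar1 and Irf3 are not.

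Of the transcription factors, Irf1 (ENSMUSG00000018899) was at 207, 108, 144 and 123 CPM at steady state. It was at 221, 135 and 178 CPM at day 1, 146, 164 and 156 at day 4, and 118, 152 and 103 at day 7. The conditions overlapped throughout, and 1 steady-state library was almost as high as the highest of day 1. Its log2 fold change at day 1 was 0.29 ± 0.26 (95% interval -0.22 to 0.80, adjusted p = 0.587, edgeR). The difference from day 1 to day 7 was -0.52 ± 0.29 (adjusted p = 0.269).

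Irf3 (ENSMUSG00000003184) was at 41.2 to 51.3 CPM at steady state, 39.6 to 52.9 at day 1, 46.9 to 64.1 at day 4 and 47.8 to 81.6 at day 7. Its mean was higher at day 4, with a log2 fold change of 0.31 ± 0.23, and at day 7, with 0.41 ± 0.24, but neither passed the threshold (adjusted p = 0.525 and 0.460, edgeR). At day 1 the value was -0.03 ± 0.22. Irf5 (ENSMUSG00000029771), which is best known from myeloid and B cells, was at 20.3 to 54.1 CPM at steady state, 33.2 to 46.9 at day 1, 31.1 to 40.7 at day 4 and 32.2 to 36.6 at day 7. Steady state spanned all other values, and the log2 fold changes of 0.14 ± 0.29, -0.08 ± 0.29 and -0.13 ± 0.29 missed the threshold (adjusted p = 0.839, 0.920 and 0.953).

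Over the members as a list, the median log2 fold change was -0.24 at day 1, -0.22 at day 4 and 0.04 at day 7 against steady state, where the median of all genes was -0.10, -0.13 and 0.00. The 3 comparisons share the steady-state libraries. At day 1, 3 members had a value above 0 and 7 below. No member passed at day 4, where 0.29% of all genes did, or at day 7, where 0.005% did. Counted by an unadjusted p under 0.05, there were 0 members in each, against 13% and 13.5% of all genes. From day 1 to day 4 no member passed either, where 1.43% of all genes did, and 0 had an unadjusted p under 0.05, against 13.7% of all genes. From day 4 to day 7 none passed, with Ifngr1 and Ifnlr1 at an unadjusted p under 0.05, where 3.90% of all genes passed and 18.7% had such a p. DESeq2 also called no member against steady state, between days 1 and 4 or between days 4 and 7. By libraries that did not overlap, 0 members differed from steady state at days 1 and 4 (15.8% and 14.7% of all genes did) and 1 at day 7 (7.49%). It was 2 from day 1 to day 4 (26.3% of all genes), 1 from day 1 to day 7 (27.5%) and 3 from day 4 to day 7 (26.2%). For 7 of the 10 members the 95% interval at day 1 against steady state lay within 1 log2 unit of 0, and for Ifngr1, Ifngr2 and Ifnlr1 it went beyond.

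The other genes of the pathway were counted from lists compiled with earlier results of these data known, so their direction is no independent evidence. All 14 interferon-stimulated genes rose at day 1, by 1.63 to 4.67 on the log2 scale (median 3.12), where 1.68% of all genes rose. Without the 3 libraries that stand apart, 11 of the 14 passed. Ifit3, an antiviral RNA-binding protein, had a mean of 69.4 ± 7.99 CPM at steady state (n = 4) and 1764 ± 881 at day 1 (n = 3). All 14 fell from day 1 to day 4 (1.07% of all genes did) and from day 1 to day 7 (4.45%), and none passed at days 4 or 7 against steady state. Without the 3 libraries, which leaves day 4 with 1, the counts of falls were 2 and 12.

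Of 5 genes of the receptor and STAT step counted here (Il10rb, Jak2, Stat2, Stat3 and Irf9), 2 rose at day 1 and none fell. Stat2, a factor of the response to type I interferon, was at 52.7 to 111 CPM at steady state and 283 to 331 at day 1, without overlap. Its log2 fold change was 1.81 ± 0.39 (adjusted p = 0.000916, edgeR), and the call was kept under all 16 alternatives. Irf9, its DNA-binding partner, rose by 1.33 ± 0.33 (adjusted p = 0.00663). Irf9 missed the threshold without the 3 libraries that stand apart, with 1.04 (adjusted p = 0.0704), and when only the conditions compared were fitted (adjusted p = 0.0514). Beside them, the receptor chains that lead to these factors, Ifnar1 and Ifnar2, were at 0.07 and -0.25 in the same comparison.

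Of the 6 other IRFs, 2 rose at day 1: Irf9, as above, and Irf7, the amplifier of type I interferon. Irf7 was at 101 to 228 CPM at steady state and 924 to 1759 at day 1. Its log2 fold change was 3.17 ± 0.61 (adjusted p = 0.000139, edgeR), while Irf1, Irf3 and Irf5 were at 0.29, -0.03 and 0.14. The difference between Irf7 and the member IRFs was not tested. Of 7 adaptors and kinases that activate IRFs, Myd88 (1.20 ± 0.34) and Tmem173, which encodes STING (0.90 ± 0.27), rose at day 1, with adjusted p of 0.0238 and 0.0435. Both missed the threshold without the 3 libraries, and without 1 of PBS day 1 replicate 2, PBS day 7 replicate 1 or 2, or day 1 replicate 1 (Myd88 adjusted p from 0.0573 to 0.119, Tmem173 from 0.0579 to 0.181), and Tmem173 also without day 1 replicate 2 (0.0991). Both were also lost with the thymocyte score as a covariate (0.0939 and 0.131) and with only the conditions compared (0.109 and 0.152), and Tmem173 with no filter (0.0826). Of 10 negative regulators, Usp18, which blocks IFNAR2 (2.65 ± 0.53), and Trim21 (1.28 ± 0.34) rose, with adjusted p of 0.000227 and 0.0124. Trim21 missed the threshold without the 3 libraries, at 0.90 (adjusted p = 0.0924), and with only the conditions compared (adjusted p = 0.0724).

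**Figure D5:**
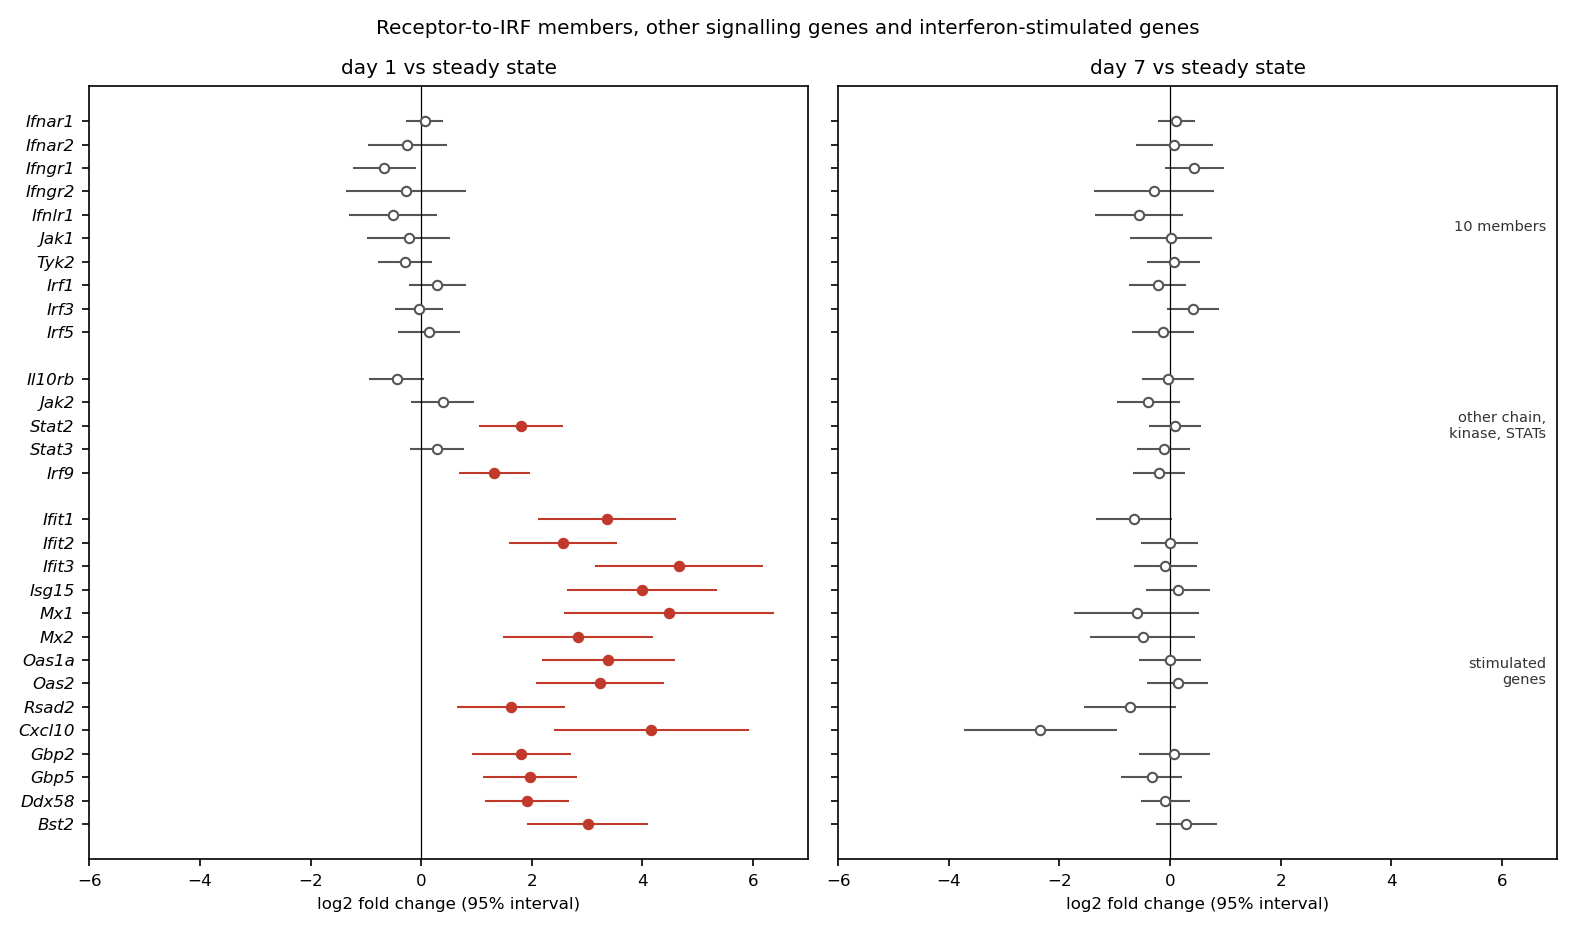
Log2 fold change with its 95% interval at day 1 (left) and day 7 (right) against steady state, for the 10 members, 5 other genes of the receptor and STAT step, and 14 interferon-stimulated genes. Filled red points have an adjusted p of 0.05 or less. At day 1 Stat2, Irf9 and all 14 stimulated genes are red and no member is, and at day 7 none is red.

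The ligands were at the edge of detection in these counts. Reads that match several sites were dropped in counting, so any reads shared between interferon genes are missing from these values. Of 16 interferon genes listed, 2 passed the filter, Ifnl2 and Ifnl3, and none of the comparisons called them. The summed level of all 16 was 0.275 to 1.62 CPM at steady state, 0.743 to 1.05 at day 1, 0.176 to 0.387 at day 4 and 0.0542 to 0.225 at day 7. At day 7, 15 of the 16 had 3 counts or fewer in every library.

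For each member, the genes with the most similar pattern over the 13 libraries were found by Pearson's r of log2(CPM + 0.5) among genes with a mean of at least 5 CPM. The values are descriptions, since the genes share libraries and depth. Jak1 was closest to Nsun2, Rbm17 and Guf1 (r of 0.994, 0.990 and 0.989), and Ifngr2 to Wipi2, Tmem123 and 0610012G03Rik (0.992, 0.991 and 0.991). Jak1 and Ifngr2 had an r of 0.936 with each other, Ifngr2 and Ifnar2 of 0.869 and Jak1 and Ifnar2 of 0.866. Ifnar2 was closest to Klhl36 (0.983), Dgcr2 and Med16. Ifngr1 was closest to Arhgef6 (0.949), Mum1 and Gm12258. Ifnar1 was closest to Mogs (0.867), Adgrl1 and Dpp9, and Ifnlr1 to Ccdc120 (0.923), Osbpl6 and Sertad2. Tyk2 was closest to Gabbr1 (0.981), Rgl2 and Rexo1, and Irf1 to Snx11 (0.971), Apobec1 and Resp18. Irf3 was closest to Ngrn (0.959), Alkbh4 and Pdrg1, and Irf5, with the lowest values, to Tex2 (0.853), Styk1 and Unc45b. None of the 3 nearest genes of any member was a stimulated gene of the list above.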

How the data were processed

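The deposited values are whole-number counts of reads per gene in 13 libraries, not normalized. Per the labels and the study's methods, CD45- cells were enriched by magnetic depletion and sorted, and the authors trimmed reads with Trimmomatic 0.38, aligned them with STAR 2.7.0e to GRCm38.p5 (mm10) and counted them with featureCounts 1.6.3 by gene, which drops reads of overlapping genes and of several sites. The deposited column of exonic length in bases served for levels per kb. All columns of counts were used. Conditions came from the labels, and the 4 steady-state columns were mapped only as a group.

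All 13 libraries entered 1 edgeR 4.0.16 fit (R 4.3.3) with a term for condition, TMM scaling and filterByExpr, which kept 19984 genes (about 0.227 CPM in at least 3 libraries). The quasi-likelihood F-test was adjusted by Benjamini-Hochberg over all of them, with a threshold of 0.05 and no fold threshold. The standard error is the absolute log2 fold change divided by the normal quantile that its p-value gives, and 95% intervals follow from it. A count of 3 or fewer was taken as the floor. Intervals and the floor cover the spread of these libraries only. Members and gene lists were chosen with earlier results of these data known, and 1 gene of the lists is not reported here. The text names all 10 members, and from other lists up to 4 genes per comparison with the largest change among those past the threshold. Alternatives were RLE scaling, DESeq2 1.42.0, no filter, at least 10 counts in every library, only the conditions compared, a covariate (a thymocyte score, the mean log2(CPM + 0.5), or the family of the tags that end the column names), a block for replicate number, and omission of each library. Leaving out the 3 libraries that stand apart and a covariate for the correlation with GC content were chosen after seeing the data. The steps were tested on simulated data. Python 3.11.15, pandas 2.3.3, numpy 2.4.6 and matplotlib 3.10.9 were used for tables and plots. Gene symbols came from GENCODE M21, with 53274 of 53379 matched, and promoter windows from RefSeq (GRCm38.p6).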

Additional observations from a re-analysis of the deposited data

Results flagged for a closer look

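Of the members, Ifngr1 differed between times after irradiation: its log2 fold change of day 7 against day 1, 1.10, is the difference of both days' changes from steady state and passed the threshold in edgeR. In this comparison 8.13% of all genes passed, and the call of Ifngr1 was kept under 6 of 16 alternatives. Cause and cell type were not tested.

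Pathway genes that passed between these times fell from day 1. From day 1 to day 4 the log2 fold changes were -1.76 for Stat2, -2.13 for Irf7 and -2.48 for Usp18. The fall of Irf7 missed the threshold without any 1 library of day 4. The falls of Stat2, Irf7, Usp18, Mx1 and Cxcl10 to day 4 missed it without the 3 libraries that stand apart (adjusted p from 0.258 to 1). Of the stimulated genes they were -5.67 for Mx1, -4.98 for Cxcl10, -4.19 for Ifit3 and -3.91 for Isg15. From day 1 to day 7 they were -1.72 for Stat2, -1.52 for Irf9 and -2.99 for Irf7. Further values of day 7 against day 1 were -1.27 for Myd88, -1.15 for Tmem173, -3.24 for Usp18 and -1.34 for Trim21. When 1 library was left out, Myd88 missed the threshold without day 1 replicate 1 or day 7 replicate 2 or 3 (adjusted p from 0.0633 to 0.0846), Tmem173 without day 7 replicate 2 or 3 (0.0562 and 0.0515), and Trim21 without day 7 replicate 3 (0.0519). These 3 also missed it without the 3 libraries that stand apart (0.0744 to 0.116) and, with Irf9, under the thymocyte score as a covariate (0.106 to 0.391). Tmem173 and Trim21 missed it with the replicate block (0.0612 and 0.0728), and Trim21 with only the conditions compared (0.0549). The values of stimulated genes were -6.51 for Cxcl10, -5.09 for Mx1, -4.75 for Ifit3 and -4.01 for Ifit1. Each is a tested difference within 1 edgeR fit, and all 3 libraries of the later day were below those of day 1 for every gene named here.

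At steady state, 1 library lay far from the other 3 for 3 stimulated genes past the 95% limit of Dixon's ratio. The ratio was 0.936 for Ifit3, 0.858 for Cxcl10 and 0.839 for Ifit1, and in each the high library was PBS day 1 replicate 2, at 81.4, 88.9 and 149 CPM. No member had such a library, and Tyk2 came closest at 0.824. Of 22 genes examined, chance flags about 1 in 20.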

How the results depend on the processing

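The count of 1 member past the threshold between day 7 and day 1 (Ifngr1) became 0 with only the conditions compared, the thymocyte score or the tag family as a covariate, the replicate block, and without the 3 libraries that stand apart, and was 0 to 1 when 1 library was left out. Same-numbered libraries did not deviate together more than others: the mean correlation of deviations was -0.292 over 9 same-numbered pairs (-0.91 to 0.336) and 0.115 over 18 others. Day 1 replicate 1 and day 4 replicate 2, both among the libraries that stand apart, had an r of 0.813. As these means depend on which numbers the 3 libraries carry, they cannot tell whether a number marks a shared animal or batch. The replicate block, run over the 9 irradiated libraries since steady-state columns carry no label number, gave Ifngr1 1.08 (adjusted p = 0.0827). The other 5 counts of members stayed at 0 under every alternative. Of 960 alternative values of single members 6 passed, all for Ifngr1, and no called value changed sign. Of the other lists, the 2 adaptors and kinases past the threshold at day 1 became 0 to 2 over all alternatives, the 2 of the receptor and STAT step, the 2 other IRFs and the 2 negative regulators 1 to 2, and the 14 stimulated genes 11 to 14. Between days 1 and 4, the 14 stimulated genes became 2 without the 3 libraries and 9 with the replicate block, the 1 of the receptor and STAT step 0 to 2, and the 1 other IRF and 1 negative regulator 0 to 2. Between days 1 and 7, the 2 adaptors and kinases became 0 to 2, the 2 other IRFs and 2 negative regulators 1 to 2, and the 2 of the receptor and STAT step 1 to 3. The signs of values that missed the threshold were less stable, and each of the following log2 fold changes had the opposite sign to the reported one. The cause was not tested.

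Against steady state at day 1, Irf3 was 0.020 with RLE, 0.015 with DESeq2, 0.041 with the thymocyte score and 0.054 with the tag family, and Tyk2 was 0.020 with the thymocyte score. At day 4, Irf5 was 0.0018 with RLE, 0.028 with only the conditions compared, 0.068 with the thymocyte score and 0.17 with the tag family. At day 7, Jak1 was -0.0018 with the stricter filter and -0.012 with only the conditions compared. With the thymocyte score, Ifngr1 was 0.48 and Tyk2 0.34 at day 4, and Tyk2 -0.26 at day 7, against steady state. Tyk2 was then 0.32 and Irf1 0.030 from day 1 to day 4, Ifngr2 0.54, Ifnlr1 0.13 and Tyk2 -0.28 from day 1 to day 7, and Ifngr1 -0.35, Tyk2 -0.60 and Irf3 -0.15 from day 4 to day 7. With the tag family, Ifngr2 was 0.20 and Irf5 0.14 at day 7 against steady state. Ifnar2 was then 0.067, Tyk2 0.028 and Irf5 0.10 from day 1 to day 4, and Ifngr2 1.03, Ifnlr1 0.47 and Irf5 0.079 from day 1 to day 7. With only the conditions compared, Tyk2 was 0.030 from day 1 to day 4. With the GC correlation as a covariate, Ifnar2 was 0.024 and Irf1 -0.044 at day 4 against steady state, Ifnar2 0.35, Ifngr2 0.17 and Tyk2 0.015 from day 1 to day 4, and Ifngr2 0.41 and Ifnlr1 0.12 from day 1 to day 7. Without the 3 libraries, Ifnar2, Ifngr2 and Jak1 were 0.13, 0.21 and 0.13 at day 1 and 0.15, 0.11 and 0.014 at day 4 against steady state, with Irf5 at 0.11. Ifnar2 was then 0.015 and Irf5 0.0089 from day 1 to day 4, Ifnar1 -0.047, Ifnar2 -0.060 and Jak1 -0.11 from day 1 to day 7, and Ifnar2 -0.075 and Ifngr2 -0.40 from day 4 to day 7.

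When 1 library was left out, the values at day 1 against steady state ran from -0.068 to 0.43 for Irf5, -0.15 to 0.056 for Irf3, -0.51 to 0.12 for Ifnar2, -0.59 to 0.19 for Ifngr2, -0.49 to 0.12 for Jak1 and -0.052 to 0.14 for Ifnar1. At day 4 they ran from -0.024 to 0.41 for Irf1 and -0.28 to 0.26 for Irf5, and at day 7 from -0.051 to 0.21 for Ifnar2, -0.011 to 0.13 for Jak1, -0.18 to 0.24 for Tyk2 and -0.33 to 0.11 for Irf5. From day 1 to day 4 they ran from -0.46 to 0.18 for Ifnar2 and -0.21 to 0.050 for Tyk2. From day 1 to day 7 they ran from -0.028 to 0.17 for Ifnar1, -0.043 to 0.59 for Ifnar2, -0.097 to 0.51 for Jak1, -0.49 to 0.29 for Ifngr2 and -0.36 to 0.39 for Ifnlr1, and from day 4 to day 7 from -0.21 to 0.19 for Irf3. Where leaving out 1 library left 2 in a condition, the spread was pooled over all. With 3 libraries per time, and 1 at day 4 without those that stand apart, intervals reached past 1 log2 unit for 3 of the 10 members at day 1 (Ifngr1, Ifngr2 and Ifnlr1), 4 at day 4 (with Ifnar2 and Jak1 in place of Ifngr1) and 2 at day 7 (Ifngr2 and Ifnlr1) against steady state, and for 3 to 5 between times.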
